A study of Mus musculus with 4 samples.

Results

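The secreted ligands, membrane receptors and secreted antagonists of Wnt signaling, with 3 intracellular genes of the pathway, were followed in mouse lens epithelia with and without ultraviolet B (UVB) irradiation. Members were chosen by gene symbol: Wnt, Fzd, Sfrp or Dkk followed by a number, plus Lrp5, Lrp6, Frzb, Wif1, Axin2, Lef1, Tcf7 and Ctnnb1. Of the 45 genes that this rule names, 44 had a probe set carrying their symbol alone, among 19938 such genes on the array, and Tcf7 was not analysed here. They were 19 ligands, 12 receptors, 10 antagonists and 3 intracellular genes. A gene was given by its probe set with the highest mean signal, which mattered for Wnt4 alone. The right eyes of anesthetized C57BL/6 male mice, 8 weeks old, had received UVB at 30 mJ/cm2, and the left eyes had been shielded with foil as control. Lens epithelia were taken 24 h later. Each condition had 2 arrays, 1 from each of 2 independent experiments, and the methods give 3 mice for animal experiments done in duplicate, without saying how many of them an array drew on. The p-values below therefore rest on the spread between 2 experiments, which limma combines with a spread pooled over all probe sets.

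Wnt proteins are lipid-modified secreted ligands that bind a Frizzled receptor together with an Lrp5 or Lrp6 co-receptor. In the canonical branch this stops the destruction of β-catenin, which then works with Tcf and Lef factors in the nucleus. Other branches act on cell polarity and movement. Sfrp proteins, Frzb and Wif1 bind Wnt ligands outside the cell, and Dkk1 binds the Lrp co-receptors. In the lens, Wnt signaling is known for keeping the epithelium as an epithelium and for orienting fiber cells, and it has a part in epithelial–mesenchymal transition.

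The study follows Otx2 as a UVB-responsive factor, so that promoters of the Wnt genes were searched for the core TAATCC bound by Otx and Crx proteins, and for CTTTGA, the core bound by Tcf and Lef factors, on both strands. RefSeq windows of the 250 bases before a transcript start (GRCm38.p6) were matched for 30 of the 44 genes, in 37 windows. TAATCC stood in 3 of these windows (8.11%), against 6.25% of all 32851 windows. CTTTGA stood in 6 (16.2%), against 13.8% of all. The 3 stretches with the Otx and Crx core are shown first, then some with the Tcf and Lef core, namely those of Wnt5b, Dkk1 and Frzb and the one of Lef1 that lies nearer to the start. Each runs 5′ to 3′ on the gene's strand, and capitals mark the core, written GGATTA or TCAAAG where it lies on the opposite strand.
Fzd1, chr5:4758390-4758449, minus strand: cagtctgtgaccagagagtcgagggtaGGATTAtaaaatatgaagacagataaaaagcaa
Sfrp2, chr3:83766198-83766257, plus strand: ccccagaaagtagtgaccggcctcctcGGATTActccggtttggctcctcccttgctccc
Wnt11, chr7:98838595-98838648, plus strand: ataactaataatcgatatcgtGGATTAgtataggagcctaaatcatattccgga
Wnt5b, chr6:119449425-119449484, minus strand: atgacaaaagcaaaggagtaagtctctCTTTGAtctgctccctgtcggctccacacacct
Dkk1, chr19:30549581-30549640, minus strand: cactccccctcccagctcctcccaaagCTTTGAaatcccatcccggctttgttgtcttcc
Dkk1, chr19:30549638-30549697, minus strand: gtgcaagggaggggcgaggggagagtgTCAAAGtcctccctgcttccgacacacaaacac
Frzb, chr2:80447459-80447518, minus strand: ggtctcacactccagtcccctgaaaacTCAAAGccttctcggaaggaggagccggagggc
Lef1, chr3:131156147-131156206, plus strand: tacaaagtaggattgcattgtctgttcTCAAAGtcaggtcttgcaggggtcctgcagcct
A match is a stretch of letters and was not tested for binding.

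Wnt genes differed little between UVB-irradiated and control lens epithelia. UVB minus control, given throughout as a difference of log2 signals averaged over both experiments, lay between −0.15 for Wnt5b and 0.25 for Fzd8. Over the 44 genes the median was 0.0025, beside −0.02 over all 28944 probe sets. When each array was centred on its median, it was −0.0175, beside −0.04 over all probe sets. When the 75th percentiles of the arrays were set equal, it was 0.0225, beside 0. The median size of the difference was 0.0575, against 0.07 over all probe sets. In limma with the experiment as a block, none of the 44 passed the study's thresholds of 1.8-fold with an unadjusted p under 0.01. In that fit, 0.0622% of all probe sets passed them as higher. The study made its own selection with other software, named below, so that this share is not its count. In limma with the block, 0 Wnt genes had an adjusted p under 0.05, as did 0% of all probe sets in either direction. The lowest adjusted p over the Wnt genes was 0.357. At an unadjusted p under 0.05 in the same fit, 4 Wnt genes were higher (Lrp5, Wnt4, Wnt9b and Fzd8), beside 5.69% of all probe sets, and 1 was lower (Wnt5b), beside 7.71%. Student's t-test, given in the methods for statistics in general, was run unpaired and is called the methods' t-test here. For the arrays, the methods name the Transcriptome Analysis Console. By the methods' t-test, 0 Wnt genes had an adjusted p under 0.05, as did 0 of all probe sets with a p. The test counts 2 degrees of freedom, where the values hold 1 as described below. At an unadjusted p under 0.05 it gave 6 higher and 5 lower, beside 9.76% and 16.1% of all probe sets with a p. That test gave no p for 5 Wnt genes whose arrays did not differ within either group, Wnt5b among them.

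**Figure D1:**
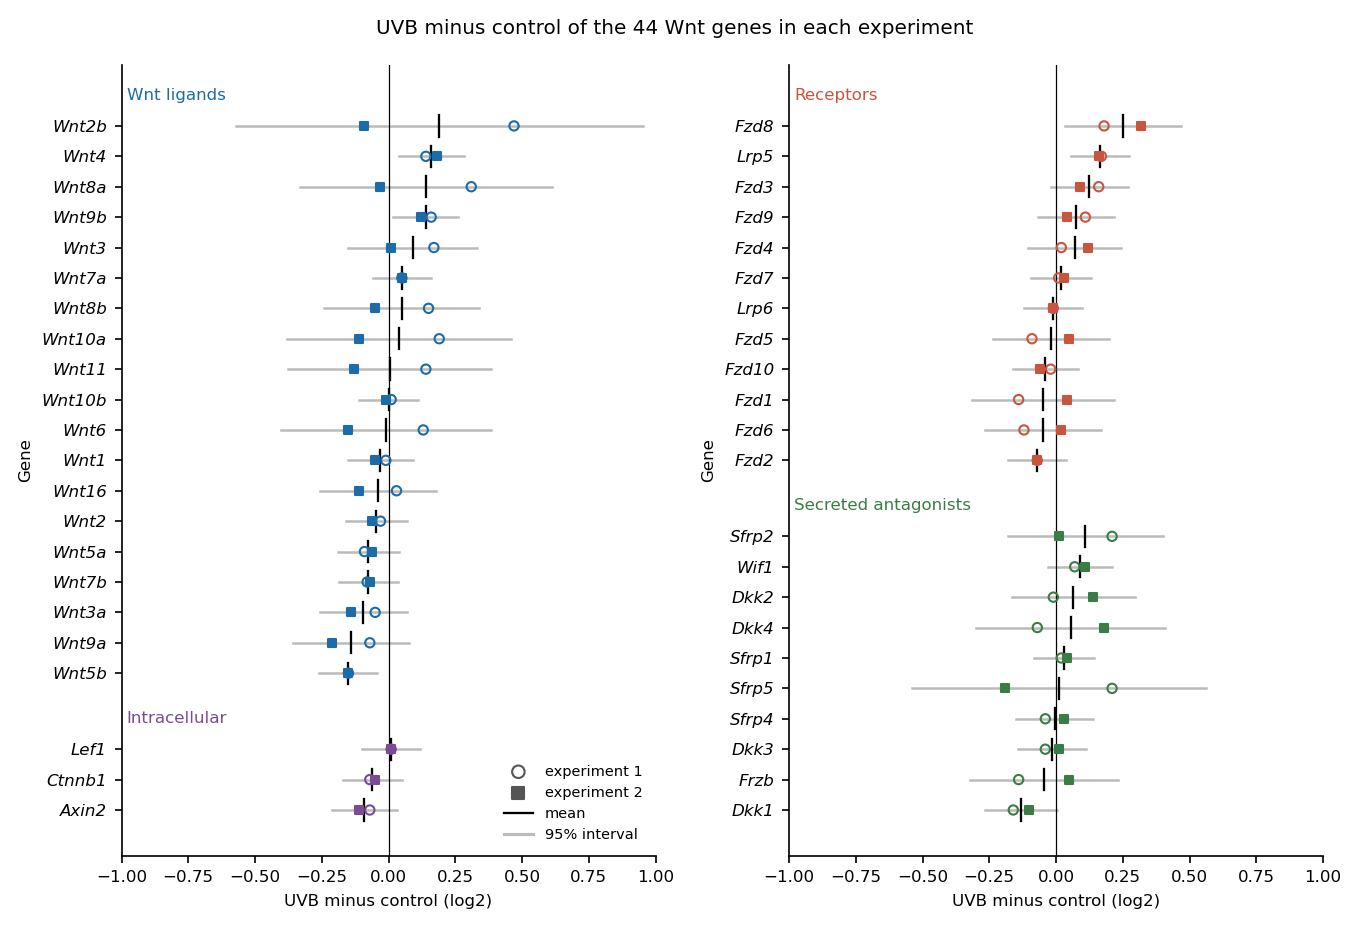
UVB minus control (log2) of the 44 Wnt genes by role, with experiment 1 as open circles, experiment 2 as filled squares, their mean as a black tick and the 95% interval of the mean from limma as a gray bar. Means run from −0.15 for Wnt5b to 0.25 for Fzd8, and the interval leaves out 0 in 5 genes.

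How large a change in signal these arrays could have missed was read from limma's 95% intervals. The half-width of the interval had a median of 0.144 over the Wnt genes and ran from 0.109 to 0.763. In 43 of the 44 genes, the interval lay within 1.8-fold in either direction, and Wnt2b was the exception. It lay within 1.5-fold in 42, with Wnt8a as the further exception. The same was not counted over all probe sets, so that these counts do not set Wnt genes apart. The intervals are of signals, and background can hide a change in RNA, in particular in the 22 genes below the array median. Each interval stands for its own gene and rests on 1 residual degree of freedom of that gene. To this limma adds 1.179 prior degrees of freedom from a variance pooled over all probe sets, so that the widths depend on it. Where both experiments gave the same difference, as for Wnt5b, the standard error (0.027) comes from the pooled variance alone.

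Without the block, 3 Wnt genes were higher at an adjusted p under 0.05 in limma (Lrp5, Wnt4 and Wnt9b), beside 6.62% of all probe sets, and 4 were lower (Wnt5b, Wnt7b, Fzd2 and Dkk1), beside 11%. That fit counts 2 residual degrees of freedom. The summed signals of experiments 1 and 2 were equal within 0.01 in every probe set, however, so that the deposited values hold 1 residual degree of freedom, and the fit with the block was taken as the result. When 1 array in turn was also left out, 1 group held 1 array only, so that those fits cannot decide about the 7 genes. At an unadjusted p under 0.05 the fit without the block gave 8 higher and 10 lower, beside 14.4% and 23.6% of all probe sets.

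Signals of Wnt genes spanned most of the range of the arrays. In control epithelia, 22 of the 44 genes had a mean log2 signal above the median of all probe sets, 11 of them above the 75th percentile and 4 of the 44 below the 25th percentile. The control arrays had medians of 7.19 and 7.20 and 75th percentiles of 8.85 and 8.84. Because probe sets differ in how strongly they bind, these positions do not order the genes by abundance. Receptors lay above the median in 10 of 12 genes, ligands in 8 of 19 and antagonists in 2 of 10. The latter were Sfrp1 and Dkk3, which also lay above the 75th percentile. The ligands above the 75th percentile were Wnt7b, Wnt7a, Wnt5b and Wnt5a, and the receptors were Fzd1, Fzd6, Fzd7 and Lrp6. Dim probe sets carry a larger share of background, which can hide a change. Those below the 25th percentile were Wnt1, Wnt8b, Sfrp2 and Sfrp4.

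**Figure D2:**
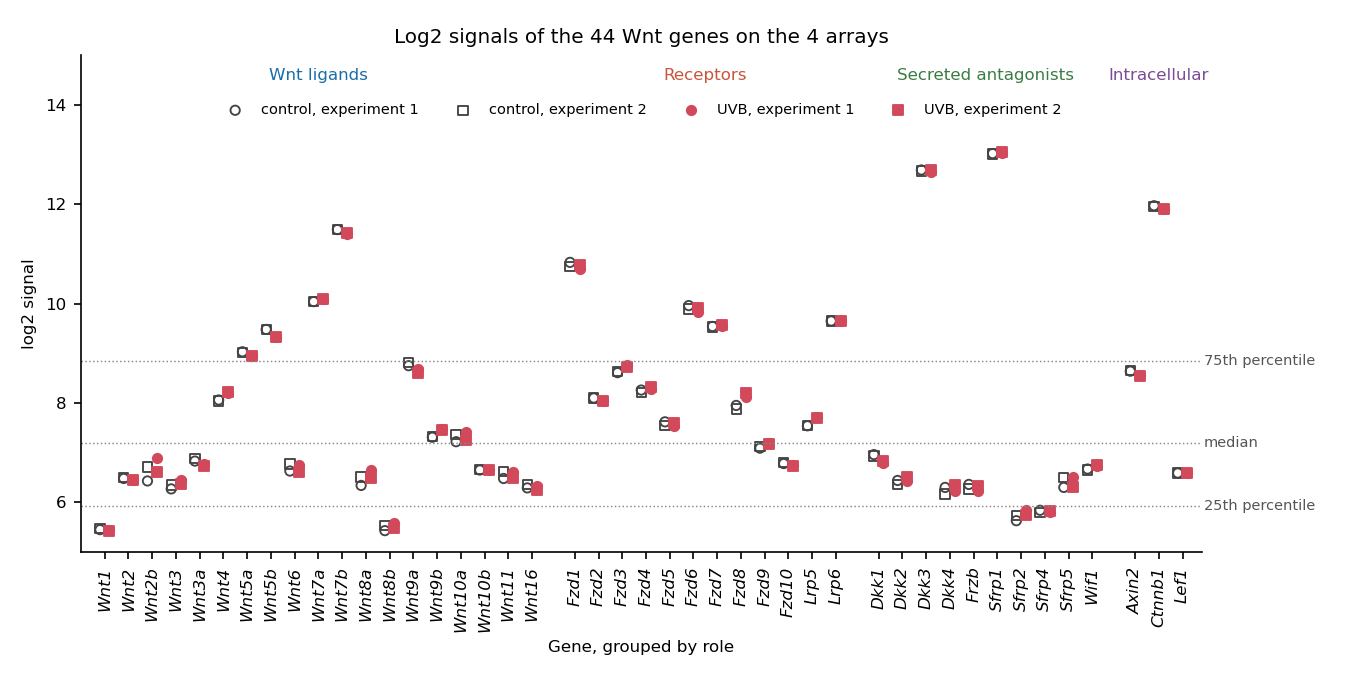
Log2 signals of the 44 Wnt genes on each array, with open symbols for control, filled symbols for UVB, circles for experiment 1 and squares for experiment 2. Dotted lines are the 25th percentile, median and 75th percentile of the control arrays, and 22 genes have control means above the median line.

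At an unadjusted p under 0.05 in limma with the block, Wnt5b was the 1 ligand lower after UVB, and Wnt4 and Wnt9b were higher. Wnt9b did not pass with quantile normalization, nor Wnt4 when its probe sets were averaged. Wnt7b passed as lower with an intensity trend, with probe sets above the median only, without the block and by the methods' t-test. Wnt5a passed as lower without the block and by the methods' t-test. Further ligands passed without the block only, among them Wnt3a and Wnt9a as lower and Wnt7a as higher. Wnt5b, a ligand best known for β-catenin-independent signaling, had log2 signals of 9.48 and 9.48 in the controls of experiments 1 and 2 and of 9.33 and 9.33 after UVB. Both control arrays lay above both UVB arrays, with a difference of −0.15 in each experiment (standard error 0.027, 1.11-fold). Wnt4, a ligand of epithelial organ development, had signals of 8.06 and 8.04 on the control arrays and 8.20 and 8.22 after UVB. The groups did not overlap, and the difference was 0.16 (standard error 0.030, 1.12-fold). A second, dimmer probe set of Wnt4 differed by 0.10 in experiment 1 and 0 in experiment 2. Wnt9b, a ligand known from the kidney and the face, had signals of 7.31 and 7.33 on the control arrays and 7.47 and 7.45 after UVB, a difference of 0.14 (standard error 0.030). It lay close to the array median of 7.19 to 7.22. In limma with the block, these 3 ligands had an adjusted p of 0.357 each.

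Paralogous ligands did not all lie on the same side of 0. Wnt9a, next of kin to Wnt9b, had signals of 8.75 and 8.82 on the control arrays and 8.68 and 8.61 after UVB. Its difference was −0.14, with −0.07 in experiment 1 and −0.21 in experiment 2, while Wnt9b was higher in both. Wnt7b had signals of 11.49 and 11.49 on the control arrays and 11.41 and 11.42 after UVB, with differences of −0.08 and −0.07. Wnt7a had 10.04 in both controls and 10.09 on both UVB arrays, higher by 0.05 in each experiment. Both are known as epithelial ligands. Wnt5a, the closest relative of Wnt5b, was lower as well, from 9.03 and 9.01 in control to 8.94 and 8.95 after UVB. Wnt3a, a classical canonical ligand, went from 6.83 and 6.88 to 6.78 and 6.74, and Wnt3 from 6.27 and 6.35 to 6.44 and 6.36, so that Wnt3 was 0.17 higher in experiment 1 and 0.01 in experiment 2. Whether paralogs differed from each other was not tested. In all, 4 of 19 ligands were higher and 7 lower in both experiments, beside 24% and 37.4% of all probe sets, with a median difference of 0.

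Receptors held the largest increase and 2 of the 4 genes that were higher at an unadjusted p under 0.05 in limma with the block, of which Fzd8 did not pass with centring on the median. Fzd8, a Frizzled receptor of the subgroup that also holds Fzd5, had log2 signals of 7.95 and 7.88 on the control arrays and 8.13 and 8.20 after UVB. Both UVB arrays lay above both control arrays. The difference was 0.25 (95% interval 0.032 to 0.468, limma adjusted p = 0.357), which is 1.19-fold. It was 0.18 in the first experiment and 0.32 in the second. Of all 19938 genes, 6.03% differed by at least this size in either direction. Fzd5 had signals of 7.62 and 7.55 on the control arrays and 7.53 and 7.60 after UVB, and its groups overlapped. Lrp5, a co-receptor for canonical Wnt ligands, had signals of 7.54 and 7.54 on the control arrays and 7.71 and 7.70 after UVB. The difference was 0.165 (95% interval 0.055 to 0.275, limma adjusted p = 0.357), and the experiments differed by 0.01. Its partner Lrp6 had 9.65 in both controls and 9.64 on both UVB arrays, a difference of −0.01, which was 0.00688 with quantile normalization and 0.01 with equal 75th percentiles. The interval for Lrp6 ran from −0.119 to 0.0987.

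The other Frizzled genes showed smaller differences. Fzd3, which is known from axon guidance and planar polarity, had signals of 8.61 and 8.64 on the control arrays and 8.77 and 8.73 after UVB, a difference of 0.125 (limma adjusted p = 0.360). Fzd2 had 8.10 in both controls and 8.03 on both UVB arrays, a difference of −0.07. At an unadjusted p under 0.05, Fzd3 passed as higher with an intensity trend, without the block and by the methods' t-test. Fzd2 passed as lower without the block and with probe sets above the median only, and Fzd9 as higher without the block. Fzd4, the receptor for norrin as well as for Wnt ligands, had a difference of 0.07, Fzd9 one of 0.075 and Fzd7 one of 0.02. Fzd1, Fzd5 and Fzd6 were lower in experiment 1 and higher in experiment 2. Of the 12 receptors, 6 were higher and 3 lower in both experiments, beside 24% and 37.4% of all probe sets, and the median difference was 0.005.

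Secreted antagonists had no member with an unadjusted p under 0.05 in limma with the block. Dkk1 and Wif1 passed it without the block and by the methods' t-test, and Dkk1 also with probe sets averaged. Dkk1, which blocks Lrp co-receptors and is itself a target of β-catenin, had log2 signals of 6.96 and 6.93 on the control arrays and 6.80 and 6.83 after UVB. The groups did not overlap, and the difference was −0.13 (95% interval −0.265 to 0.0055, limma adjusted p = 0.357). Wif1, a binder of Wnt ligands, had signals of 6.67 and 6.65 on the control arrays and 6.74 and 6.76 after UVB, a difference of 0.09. Frzb, which binds Wnt ligands through a Frizzled-like domain, had 6.36 and 6.27 in control and 6.22 and 6.32 after UVB, with overlapping groups. Sfrp2 had 5.63 and 5.73 in control and 5.84 and 5.74 after UVB, so that nearly all of its difference came from experiment 1. Sfrp1, known as an antagonist made by the lens epithelium, had 13.02 and 13.01 in control and 13.04 and 13.05 after UVB, a difference of 0.03 (95% interval −0.082 to 0.142). Dkk3 had a difference of −0.015. Of the 10 antagonists, 3 were higher in both experiments and 1 was lower, beside 24% and 37.4% of all probe sets.

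The 3 intracellular genes differed by at most 0.09 in size. Axin2, a scaffold of the β-catenin destruction complex that is widely used as a readout of canonical signaling, had log2 signals of 8.64 and 8.66 on the control arrays and 8.57 and 8.55 after UVB. The groups did not overlap, and the difference was −0.09 (95% interval −0.211 to 0.031, limma adjusted p = 0.371). Ctnnb1, which encodes β-catenin, had 11.97 and 11.96 in control and 11.90 and 11.91 after UVB, a difference of −0.06 (limma adjusted p = 0.435). At an unadjusted p under 0.05, Axin2 and Ctnnb1 passed as lower without the block and by the methods' t-test, and Ctnnb1 also with an intensity trend. Lef1, a partner of β-catenin on DNA, had 6.59 in both controls and 6.60 on both UVB arrays, a difference of 0.01 that was −0.01 with each array centred on its median. Axin2 and Ctnnb1 were lower in both experiments, and these 3 genes had a median difference of −0.06.

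The sign was shared by both experiments in 27 of the 44 Wnt genes, which are also the genes whose control and UVB arrays did not overlap. The equal experiment means make these conditions the same. There were 14 higher in both, beside 24% of all probe sets, and 13 lower, beside 37.4%. With each array centred on its median, 8 were higher and 14 lower in both. At least 1.1-fold in the same direction in both experiments, 3 were higher (Fzd8, Lrp5 and Wnt4), beside 5.73% of all probe sets, and 1 was lower (Wnt5b), beside 5.99%. At 1.2-fold in both, 0 were higher and 0 lower, beside 1.9% and 0.739% of all probe sets. At 1.5-fold in both, 0 were higher and 0 lower, beside 0.294% and 0.0138%.

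The gap between experiments 1 and 2 had a median of 0.04 in the 22 genes above the array median and of 0.145 in the 22 below it, against 0.09 over all probe sets. The widest gap was that of Wnt2b, a ligand of the ciliary margin of the eye, with log2 signals of 6.43 and 6.71 on the control arrays and 6.90 and 6.62 after UVB. Its difference was 0.47 in experiment 1 and −0.09 in experiment 2. Sfrp5 had 6.30 and 6.50 in control and 6.51 and 6.31 after UVB, so that its differences of 0.21 and −0.19 nearly cancelled. Wnt8a, an early embryonic ligand, had 6.34 and 6.51 in control and 6.65 and 6.48 after UVB. Wnt10a, which lay just above the array median, had 7.22 and 7.37 in control and 7.41 and 7.26 after UVB. In all 4 genes the control and UVB arrays overlapped, and experiment 1 was the higher one.

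**Figure D3:**
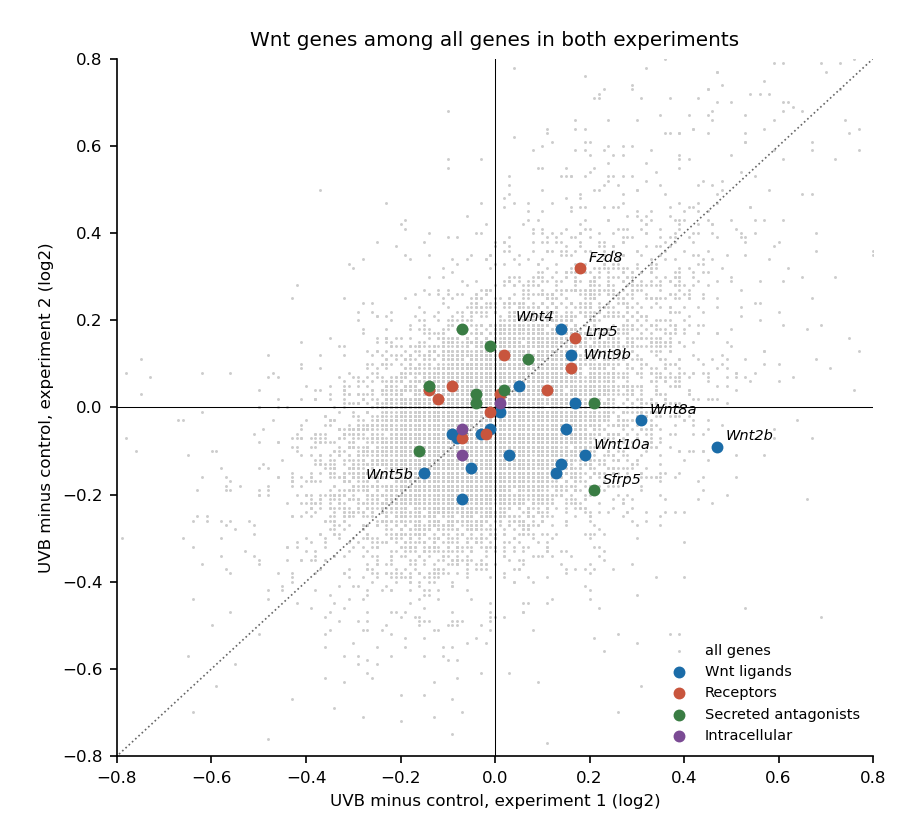
UVB minus control in experiment 1 (horizontal, log2) against experiment 2 (vertical, log2), with all genes in gray, Wnt genes in color by role and equal differences on the dotted line. Fzd8, Lrp5, Wnt4 and Wnt9b lie in the upper right, Wnt2b, Wnt8a, Wnt10a and Sfrp5 lie below 0 in experiment 2 only, and 123 genes lie outside the drawn range of 0.8 in either direction.

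The other genes of the pathway were 100 with a probe set of their own, in 6 lists by role. They had a median difference of −0.015, beside −0.02 over all probe sets, and of 0.005, beside 0, with equal 75th percentiles. In limma with the block, 0 of them had an adjusted p under 0.05, and 6 were higher and 6 lower at an unadjusted p under 0.05, beside 5.69% and 7.71% of all probe sets. Centring on the median left 3 higher, beside 4.63% of all probe sets, and equal 75th percentiles left 1 lower, beside 5.37%. By list, 1 of 14 genes of Wnt secretion and R-spondin signaling was higher in that sense and 0 lower. It was Lgr5, a receptor for R-spondins and a β-catenin target, with log2 signals of 6.81 and 6.78 on the control arrays and 7.01 and 7.04 after UVB. Rnf43, a ubiquitin ligase that removes Frizzled receptors, had a difference of −0.11, Rspo4 one of −0.105 and Rspo1 one of 0.025. Among 23 β-catenin targets, some of which other lists also hold, Lgr5 was higher and Ascl2 (−0.24) and Birc5 (−0.12) were lower at an unadjusted p under 0.05. Sox4 had −0.155 and Fosl1 had 0.19, nearly all of it from experiment 1. The median of that list was −0.005.

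The list of other secreted modulators, which also holds membrane proteins, had the largest differences among the pathway lists. Igfbp4, a binding protein of insulin-like growth factors that also blocks Wnt co-receptors, had log2 signals of 8.29 and 8.06 on the control arrays and 8.61 and 8.84 after UVB. Its difference was 0.55 (0.32 in experiment 1 and 0.78 in experiment 2, limma adjusted p = 0.360). Gpc3, a glypican that holds growth factors at the cell surface, had 7.26 and 7.14 in control and 7.65 and 7.77 after UVB, a difference of 0.51 (limma adjusted p = 0.357). Adgra2, a co-receptor for Wnt7 ligands, was higher by 0.16, and Bmper, a BMP-binding protein, had a difference of −0.27. Tspan12, a partner of Fzd4, had a difference of −0.10. Of these 12 genes, 2 were higher and 1 lower at an unadjusted p under 0.05, beside 5.69% and 7.71% of all probe sets.

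The remaining counts are also at an unadjusted p under 0.05 in limma with the block, with 5.69% of all probe sets higher and 7.71% lower in that sense. Counts of genes higher or lower in both experiments stand beside 24% and 37.4% of all probe sets. In the 22 genes of the destruction complex and its regulators, Csnk1g1, a casein kinase, passed as higher by 0.13 and 0 passed as lower, whereas 4 were higher and 10 lower in both experiments. Gsk3b, the kinase that marks β-catenin for destruction, had a difference of 0.045, Dact3 one of −0.185 and Nkd1, a feedback inhibitor, one of −0.14. Of 16 nuclear factors, 0 passed as higher and 2 as lower, with 6 lower in both experiments. The 2 were Ctnnbip1, an inhibitor of β-catenin (−0.12), and Tle3, a corepressor of Tcf factors (−0.135). Of 18 genes of planar polarity and noncanonical signaling, 2 passed as higher and 1 as lower, with 6 higher and 7 lower in both experiments. Celsr3 differed by 0.26, Vangl2 by 0.125 and Prickle1 by −0.18, all 3 being planar polarity proteins. Prickle3 had a difference of −0.135.

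Marker lists of other eye tissues held 0 genes with an adjusted p under 0.05, but photoreceptor and pigment epithelium markers were higher after UVB in nearly all members. All 15 lens epithelium markers measured lay above the 75th percentile in control, with a median difference of 0 and 2 lower at an unadjusted p under 0.05, Foxe3 (−0.14) and Gja1 (−0.155). For photoreceptors, 18 of 18 markers were higher in both experiments (median 0.94), and their summed linear signal was 8720 to 10560 in control and 16480 to 20060 after UVB. For the pigment epithelium, 15 of 16 were higher (median 0.745), with sums of 3560 to 3633 and of 7305 to 7541. Inner retina markers were higher in 12 of 14 (median 0.1925), Müller glia in 5 of 11 (0.22), ciliary body and iris in 6 of 12 (0.045), cornea and conjunctiva in 2 of 9 (0.03), blood vessels in 2 of 7 (−0.105) and leukocytes in 6 of 7 (0.235). Lower in both experiments were 0, 1, 4, 3, 4 and 1 markers of these lists, in the same order. Lens fiber markers were higher in 5 of 18 and lower in 9 (median −0.045), with Birc7 at −0.395 and Dnase2b at −0.195. Of all probe sets, 24% were higher and 37.4% lower in both experiments. The summed signals of leukocyte markers were 652 to 704 in control and 860 to 940 after UVB. In control, 15 of 18 photoreceptor markers and 11 of 16 pigment epithelium markers lay above the array median, and 1 of the latter, Tyr, lay below the 25th percentile. The authors believe that retina-related genes rose because of Otx2, and describe removing other tissues from the lens. Whether these markers came from other tissues, and the part of such tissues in the differences of Wnt genes, was not tested. In such bulk samples fewer cells of a type and less RNA per cell cannot be told apart.

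**Figure D4:**
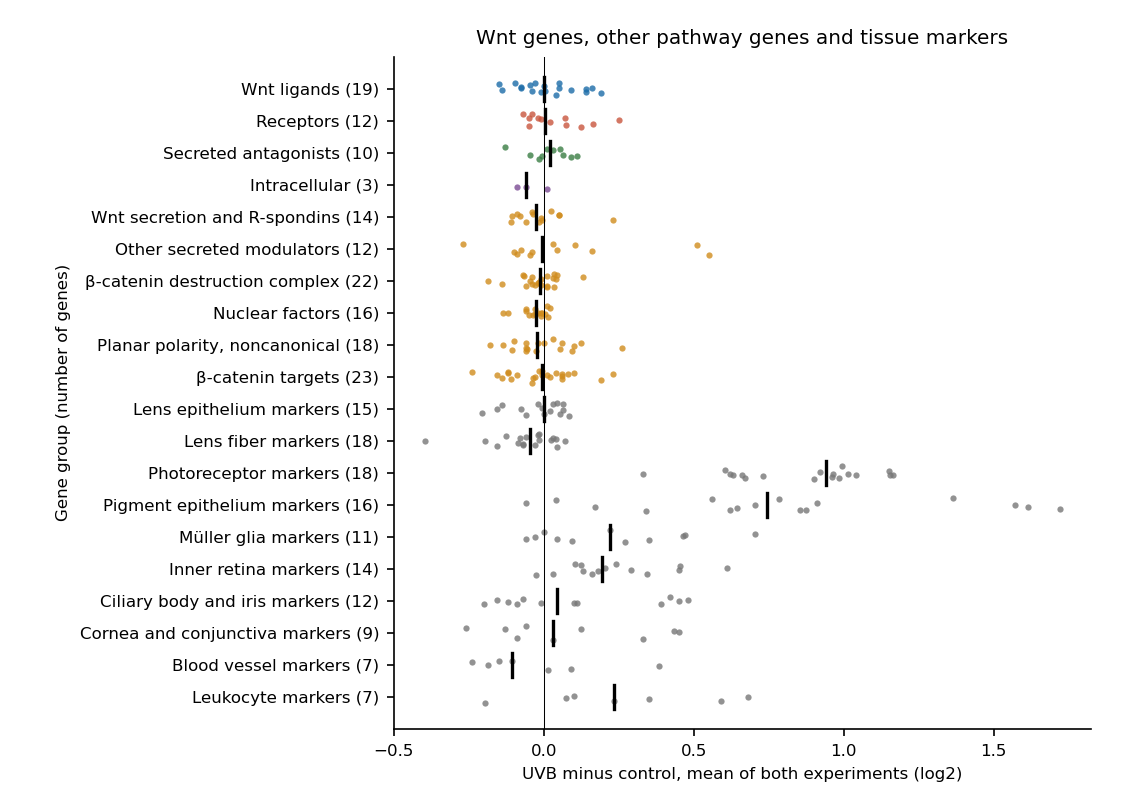
UVB minus control (mean of both experiments, log2) of single genes, as points, in the 4 roles of Wnt genes, 6 lists of other pathway genes and 10 lists of tissue markers, with the median of each as a black bar. Wnt roles and pathway lists have medians between −0.06 and 0.02, and photoreceptor and pigment epithelium markers have medians of 0.94 and 0.745.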

How the data were processed

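RNA of lens epithelia had been labelled with biotin and hybridised to 4 Affymetrix arrays (2 control, 2 UVB). The deposited values are log2 signals per probe set, which the authors normalized in Affymetrix Expression Console. No source used here gives its version, the background correction or the step that set the experiment means equal. A human array is named in the methods, whereas the probe sets carry mouse symbols. Of 28944 probe sets, 21789 had 1 symbol, 1621 had several and 5534 had none. The titles number experiment 2 and leave experiment 1 unnumbered. The numbers pair the arrays, since the methods compare both eyes of the same mice. Around the group means, arrays of the same number correlated at −0.998, which the equal means force.

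All probe sets were fitted with limma 3.58.1 in R 4.3.3, with the experiment as a block, two-sided, with Benjamini-Hochberg adjustment. The fit was also run on simulated arrays with known changes, and its outcome there is not reported here. With 2 arrays a group and the pairing ignored, the smallest exact permutation p for a single value is 0.333. Permuting within the pairs leaves fewer arrangements. The number of arrays limits the precision. Named genes were those with up to 8 of the largest differences per direction among genes of 1 sign in both experiments, the 4 with the widest gap between experiments, the 8 single genes of the rule and those with an unadjusted p under 0.05. In the other lists they were up to 2 per direction. Wnt7a, Sfrp1, Dkk3, Fzd1, Fzd4, Fzd5, Fzd6, Fzd7, Fzd9, Adgra2, Birc5 and the tissue markers were named after their values were seen. Members and lists were chosen with earlier results of these data known. Alternatives were other normalizations, priors, filters and summaries, no block, the methods' t-test, other folds and leaving out arrays. Leaving out arrays without the block was chosen after seeing the data. Promoter windows came from RefSeq.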

Additional observations from a re-analysis of the deposited data

How the results depend on the processing

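The count of 0 Wnt genes at an adjusted p under 0.05 held under each alternative except the fit with no replicate block, which gave 3 higher and 4 lower. With a robust prior, 97 of all probe sets were higher and 12 lower at that threshold. The other fits with the block and the methods' t-test called 0 probe sets of the whole array, so that their counts of 0 are not particular to the Wnt genes. With the replicate block dropped and 1 array left out in turn, 1 group held 1 array only, so that those fits cannot decide the count. At an unadjusted p under 0.05, the 4 higher and 1 lower became 8 and 10 with no replicate block (14.4% and 23.6% of all probe sets). The count of lower genes became 5 by the methods' t-test (16.1% of all probe sets with a p) and 3 with an intensity trend (8.39%). It became 3 with probe sets above the median only (11.4% of those) and 2 with each gene averaged over its probe sets (9.14% of all genes). The median difference of 0.0025, beside −0.02 over all probe sets, became −0.0175 with centring on the median, beside −0.04. It became 0.0225 with equal 75th percentiles, beside 0, and −0.0125 with probe sets above the median only, beside −0.02 over those probe sets. It was 0 to 0.01 when an array was left out, which with the block leaves the other experiment's difference, a value with no test. Genes higher in both experiments fell from 14 to 8 with centring, and 9 higher and 8 lower were among the 22 above the median. Lowering the fold in both experiments to 1.1 gave 3 higher and 1 lower, and raising it to 1.5 gave 0. For the other pathway genes, no replicate block gave 7 higher and 7 lower at an adjusted p under 0.05, and 11 and 24 at an unadjusted p under 0.05, against 6 and 6. Of all probe sets, that fit called 6.62% and 11% at the adjusted and 14.4% and 23.6% at the unadjusted threshold. At the unadjusted threshold, centring gave 3 higher, beside 4.63% of all probe sets, and equal 75th percentiles gave 1 lower, beside 5.37%. Of 24 named Wnt genes, Lef1 (−0.01) and Sfrp5 (−0.01) changed sign with centring and Lrp6 with quantile normalization (0.00688) and equal 75th percentiles (0.01). Leaving out either array of experiment 1 changed the sign of Frzb, Sfrp5, Wnt10a, Wnt2b and Wnt8a, with ranges of −0.14 to 0.05, −0.19 to 0.21, −0.11 to 0.19, −0.09 to 0.47 and −0.03 to 0.31. The cause of these changes was not tested. In the other comparisons that could be made the named genes kept their sign and, at the adjusted threshold, their side of it, save the 7 called with no replicate block. Restricting to probe sets above the median covered 14 of the 24, and the methods' t-test gave no p for Wnt5b, Fzd2, Lef1 and Lrp6. At the unadjusted threshold, Fzd8 was lost with centring, Wnt9b with quantile normalization and Wnt4 with averaged probe sets. Gained as lower were Ctnnb1 and Wnt7b with an intensity trend, Fzd2 and Wnt7b with probe sets above the median only, and Dkk1 with averaged probe sets. Fzd3 was gained as higher with an intensity trend. The methods' t-test gained Fzd3 and Wif1 as higher and Axin2, Ctnnb1, Dkk1, Wnt5a and Wnt7b as lower. With no replicate block, 4 Wnt genes were gained as higher and 9 as lower. Dim probe sets limit what can be seen below the array median.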
